A study of Rattus norvegicus with 40 samples.

Results

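The miR-17-92 cluster was followed in rat plasma on D2 and D9 after traumatic brain injury (TBI). Its members were taken by name, as every row of the count table that reads rno-miR- followed by 17, 18a, 19a, 19b, 20a or 92a, with any copy or arm suffix. The rule gave 15 of the 752 mature miRNAs. Reads were found for 13 of them, and rno-miR-92a-2-5p and rno-miR-19b-2-5p had 0 reads in all 40 libraries. A mean of at least 10 reads per library was reached by 11 members.

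The animals were adult male Sprague-Dawley rats, each sampled on both days. There were 4 sham-operated rats and 16 rats with severe TBI induced by lateral fluid-percussion injury. In the 6th month, 4 weeks of video-EEG put the injured rats into a group with epilepsy (TBI+, 7 rats) and a group without it (TBI−, 9 rats). Each library came from EDTA plasma of the tail vein, with 5 aliquots of the same rat and day pooled, so that 20 rats gave 40 libraries. No baseline or uninjured, unoperated rats were analysed here, and a single EEG period defines the outcome.

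The cluster is a polycistron: its hairpins lie side by side, are transcribed together and are then cut into separate miRNAs. It is known for driving proliferation and survival of blood and tumor cells, and many of its miRNAs are abundant in blood cells. A miRNA recognizes its targets mainly through its seed, bases 2 to 8, so that members with the same seed are expected to share targets. From each hairpin, the 5p and the 3p arm can be kept, but usually one of them, the guide, prevails while the other, the passenger, is degraded.

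In the RefSeq annotation of the rat assembly GRCr8, the order on the plus strand of chromosome 15 is Mir17, Mir18a, Mir19a, Mir20a, Mir19b1 and Mir92a1, followed by the protein-coding gene Gpc5. A paralogous cluster on the minus strand of chromosome X holds Mir106a, Mir20b, Mir19b2, Mir92a2 and Mir363, with Gpc3 nearby. All 15 names matched a RefSeq mature sequence. By these sequences, miR-17-5p, miR-19b-3p and miR-92a-3p are each made from hairpins of both chromosomes. The row named miR-17-2-3p is the 3p arm of Mir106a, so it belongs to the X paralogue and not to the cluster on chromosome 15. The sequences below are the abundant arms and the rarer 3p arms that the results turn on, with the seed in capitals.

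rno-miR-17-5p: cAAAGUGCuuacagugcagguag

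rno-miR-20a-5p: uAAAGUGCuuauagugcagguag

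rno-miR-18a-5p: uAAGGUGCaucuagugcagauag

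rno-miR-19a-3p: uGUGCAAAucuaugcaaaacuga

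rno-miR-19b-3p: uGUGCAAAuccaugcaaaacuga

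rno-miR-92a-3p: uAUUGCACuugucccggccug

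rno-miR-17-1-3p: aCUGCAGUgaaggcacuugugg

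rno-miR-17-2-3p: aCUGCACUgcaagcacuucuuac

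rno-miR-18a-3p: aCUGCCCUaagugcuccuucu

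Of these, miR-17-5p and miR-20a-5p share a seed, as do miR-19a-3p and miR-19b-3p, whereas miR-18a-5p and miR-92a-3p each have their own. Over the whole mature sequence, miR-19a-3p and miR-19b-3p differ at a single base, U11C, counted from 1 at the 5′ end with the base of miR-19a-3p first. By the same notation, miR-17-5p differs from miR-20a-5p at C1U and C12U. The next 3 hairpins, with both mature arms in capitals, show that Mir17 and Mir106a carry the same 5p arm and different 3p arms.

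Mir17: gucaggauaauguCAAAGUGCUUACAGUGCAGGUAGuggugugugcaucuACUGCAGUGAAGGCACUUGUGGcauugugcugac

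Mir106a: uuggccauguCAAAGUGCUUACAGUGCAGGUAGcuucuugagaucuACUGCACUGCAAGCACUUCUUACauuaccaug

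Mir18a: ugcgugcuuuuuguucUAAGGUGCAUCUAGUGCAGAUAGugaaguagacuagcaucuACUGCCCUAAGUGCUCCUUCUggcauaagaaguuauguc

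Depth differed between libraries: the smallest and largest totals over all rows were 404542 and 2562083 reads on D2, and 140636 and 2864893 reads on D9. Levels are counts per 1000000 reads of such a total (CPM). The D9 libraries of sham-operated rats were the shallowest group, with totals of 140636 to 358202. A count of 0 allows up to 3 reads, which is 1.17 to 7.42 CPM on D2 and 1.05 to 21.3 on D9, and this limit covers counting error only. The library numbers in the labels were divided here into 3 runs, and the labels do not say what they stand for. Numbers are missing between run 1 and run 2, but also within each run, and run 3 follows run 2 without a gap. Both boundaries are thus a choice made here. Run 1 holds the 4 D2 sham libraries with those of TBI+ rats 1 to 4, and no D2 library of a TBI− rat. Run 3 holds the D9 libraries of these 8 rats. A red blood cell index, the log2 ratio of miR-451-5p, a red blood cell miRNA, to miR-23a-3p, was −0.52 ± 0.66 on D2 and 1.13 ± 0.23 on D9 in sham-operated rats (SD, n = 4). In TBI rats it was −0.28 ± 0.64 on D2 and 1.28 ± 0.63 on D9 (SD, n = 16). The index was thus higher on D9 in both groups, but its denominator moved too. From D2 to D9, miR-23a-3p fell by 1.37 on the log2 scale in sham-operated rats (SE 0.33, adjusted p = 0.00764 by edgeR) and by 0.74 in TBI rats (SE 0.16, adjusted p = 0.000284), while miR-451-5p had a log2 change of 0.15 in sham-operated rats (SE 0.46, adjusted p = 0.997). In bulk plasma, a lower share from a source and fewer copies per source cannot be told apart.

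A single member made up nearly all of the cluster's reads. The guide miR-92a-3p, known for its part in vessel growth, ranked 2nd of all miRNAs by total reads. It took between 95.6% and 99.4% of the members' reads in each library. Together the members held between 7.40% and 20.2% of a library's total, and without miR-92a-3p they held between 0.0778% and 0.410%. In CPM, miR-92a-3p averaged 109250 over the 40 libraries, with a coefficient of variation of 24.2%. The guides miR-19b-3p, miR-19a-3p, miR-17-5p and miR-20a-5p followed at 960, 463, 421 and 205 CPM.

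The order of these levels was firm at some steps and not at others. MiR-92a-3p was above miR-19b-3p, and miR-20a-5p above miR-18a-3p, in 40 of 40 libraries. MiR-19a-3p was above miR-17-5p in 21 of 40, and miR-18a-3p above miR-18a-5p in 22 of 40, so neither pair differed beyond its spread. The lower members were miR-18a-3p and miR-18a-5p at 69.1 and 69.0 CPM, miR-92a-1-5p at 40.6, miR-17-1-3p at 32.7, miR-17-2-3p at 19.6 and miR-19a-5p at 15.4. The passengers miR-20a-3p and miR-19b-1-5p had 23 and 15 reads in all, spread over 12 and 11 libraries. Levels of different miRNAs also carry the ligation bias of the library kit, so an order of levels is an order of reads.

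**Figure D1:**
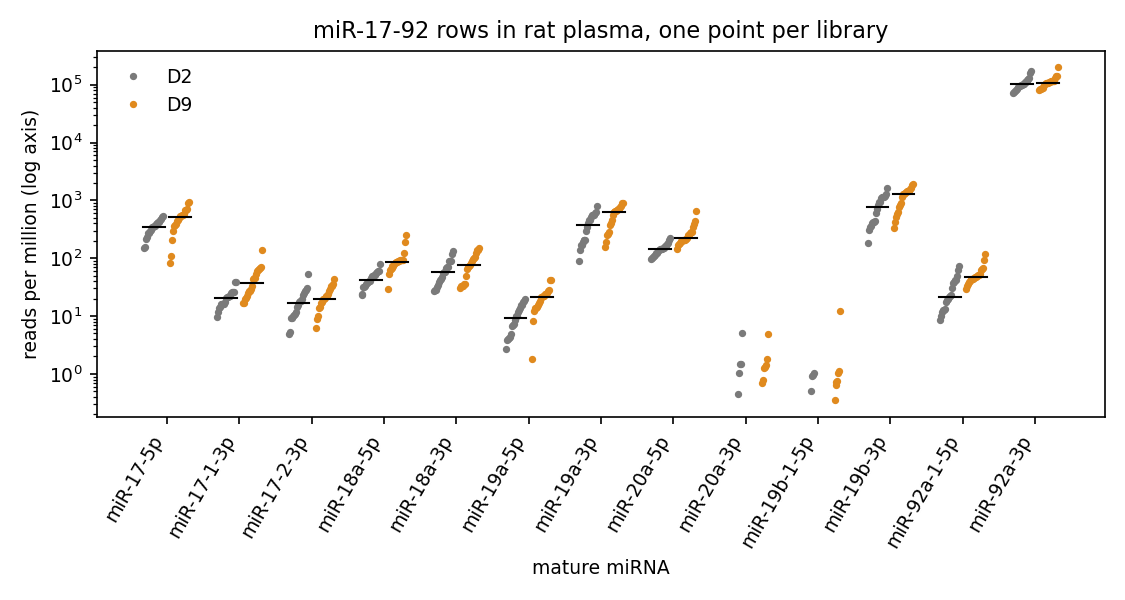
Counts per 1000000 reads (CPM) of the 13 members with reads, on a log axis, with 1 point per library and D2 and D9 side by side, and a black line at each median above 0. Libraries at 0 reads are not drawn. MiR-92a-3p stands near 109250 CPM, while miR-20a-3p and miR-19b-1-5p are absent from most libraries.

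Some rows could not be separated as distinct measurements. The reads of miR-19b-3p were between 1.87 and 2.43 times those of miR-19a-3p in each library, and 2.06 times in the pooled reads. The level of miR-19a-3p itself spanned 89.0 to 917 CPM, a 10.3-fold range. In 40 of 40 libraries, the 95% binomial interval of the share of miR-19b-3p held 66.7%, a 2:1 division. These intervals were wide in shallow libraries, at 58.6% to 77.6% in D9 sham rat 3, and the pooled ratio was above 2. An exact 2:1 division is thus not shown. MiR-19b-3p has 2 hairpins and miR-19a-3p has 1, and the way the authors' counting divided their reads was not tested. Their values are therefore given, but both are read as a single signal.

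The guides miR-17-5p and miR-20a-5p, which also differ little in sequence, were not tied in this way. The ratio of miR-17-5p to miR-20a-5p was above 1 in 37 of 40 libraries and had no fixed value. All 3 exceptions were D9 libraries. TBI− rat 2 had 28 reads of miR-17-5p and 214 of miR-20a-5p, a ratio of 0.131. TBI− rat 4 had 54 and 123 reads, and sham rat 3 had 42 and 80. On D2, the ratio lay between 1.08 and 4.01.

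**Figure D2:**
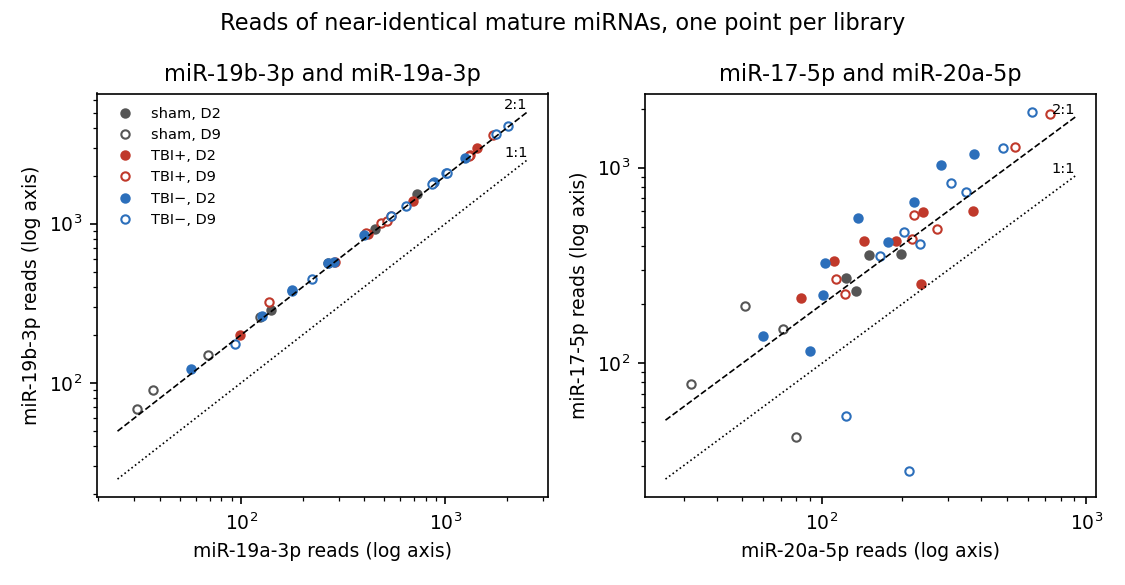
Reads of miR-19b-3p against miR-19a-3p (left) and of miR-17-5p against miR-20a-5p (right), on log axes, with 1 point per library, filled for D2 and open for D9. Dotted and dashed lines mark equal reads and a 2:1 ratio. On the left all libraries lie between 1.87:1 and 2.43:1, and on the right 3 D9 libraries fall below equality.

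The first comparison asked which members differed between injured and sham-operated rats on D2. The members that passed the test were a pair of 3p arms, miR-18a-3p and miR-17-2-3p, and both were lower after TBI. Of these, miR-18a-3p is from the chromosome 15 cluster and miR-17-2-3p is from the X paralogue. A call needed an adjusted p (Benjamini-Hochberg) below 0.05 in edgeR's quasi-likelihood test, run over all 565 rows with a read that day. Of the 13 members tested, 2 were called lower and 0 higher, where 3.01% of all miRNAs were called lower. The median log2 fold change was −0.32 over the members and 0.09 over all miRNAs.

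MiR-18a-3p stood at 132.9, 116, 87.9 and 70.6 CPM in the sham-operated rats on D2. In TBI rats the lowest, median and highest values were 27.0, 44.9 and 89.3 CPM. The groups overlapped, but 14 of the 16 TBI rats were below the lowest sham-operated rat. The log2 fold change was −0.90 (SE 0.26, adjusted p = 0.0309 by edgeR). Its partner from the same hairpin, miR-18a-5p, had a log2 fold change of −0.04 (SE 0.26, adjusted p = 0.938).

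MiR-17-2-3p stood at 53.8, 26.8, 25.3 and 30.8 CPM in the sham-operated rats on D2, from 17 to 41 reads per library. In TBI rats the lowest, median and highest values were 4.94, 13.1 and 28.0 CPM. Of the 16 TBI rats, 15 were below the lowest sham-operated rat. The log2 fold change was −1.08 (SE 0.32, adjusted p = 0.0340 by edgeR). The 5p arm of the same hairpin, miR-17-5p, had a log2 fold change of 0.19 (SE 0.26, adjusted p = 0.742), but that row also holds the reads of Mir17.

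Among TBI+ rats on D2, miR-18a-3p averaged lower in run 2 than in run 1, while the averages of miR-17-2-3p were close. With the run as a term over all 20 libraries, neither of them was called. For miR-18a-3p, the D2 libraries of TBI+ rats in run 1 averaged 78.6 ± 12.2 CPM (SD, n = 4), against 101.9 ± 28.0 in that run's sham rats (SD, n = 4) and 47.1 ± 17.5 in the run 2 TBI+ rats (SD, n = 3). Within run 1, the log2 fold change of miR-18a-3p was −0.35 (SE 0.31, adjusted p = 0.685 by edgeR). For miR-17-2-3p, the run 1 values were 16.8 ± 5.55 in TBI+ rats and 34.2 ± 13.3 in sham-operated rats (SD, n = 4 each), and the run 2 TBI+ rats averaged 15.7 ± 10.6 (SD, n = 3). Its log2 fold change within run 1 was −1.01 (SE 0.46, adjusted p = 0.229 by edgeR), near that over all libraries, and the call was lost with 8 libraries. A member not called over all 20 libraries, miR-92a-1-5p, was the only member called lower in TBI+ than in sham rats within run 1. It averaged 13.3 ± 6.45 CPM in the former and 42.1 ± 24.99 in the latter (SD, n = 4 each). The ranges overlapped, at 8.66 to 22.8 CPM in the TBI+ rats and 13.4 to 74.3 in the sham rats. What the runs stand for was not tested. The calls, though not the direction, also depended on single sham-operated rats. MiR-18a-3p was not called without sham rat 1, 2 or 3, at log2 fold changes of −0.83, −0.78 and −0.96. MiR-17-2-3p was not called without sham rat 1, 2 or 4, at −0.88, −1.15 and −1.17.

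**Figure D3:**
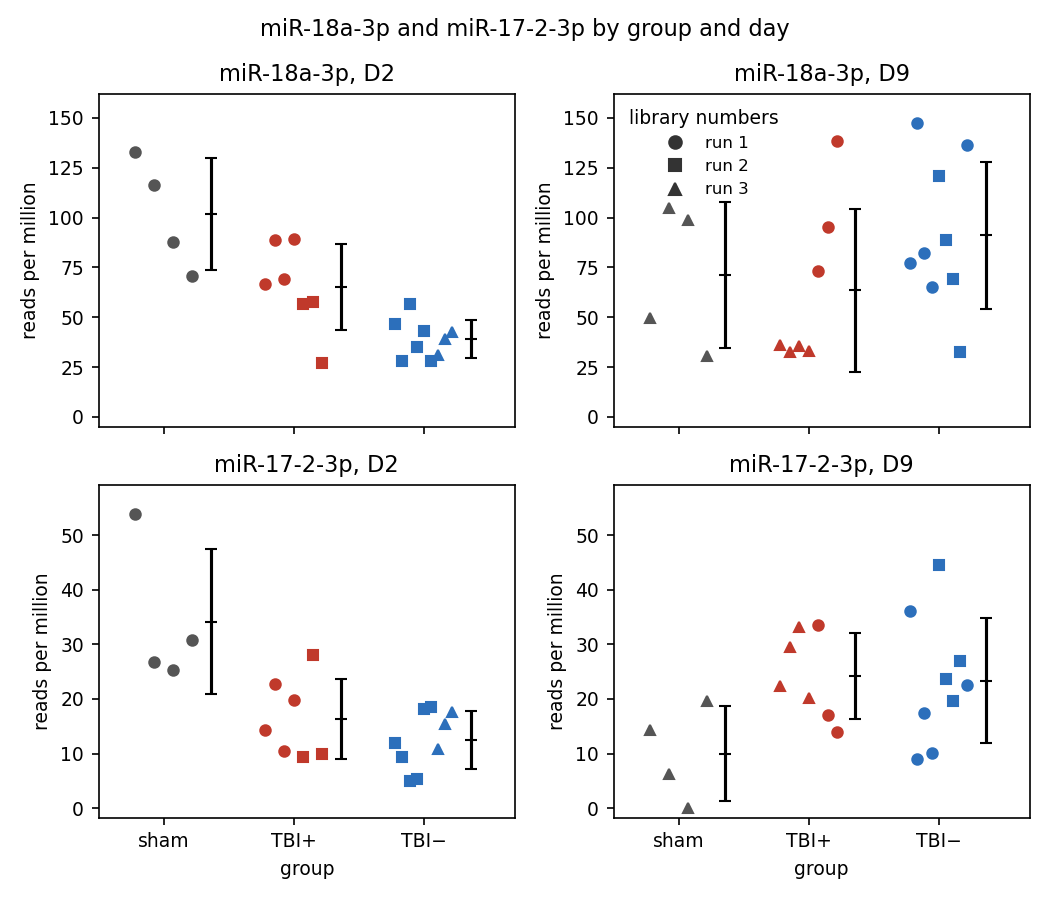
CPM of miR-18a-3p (top) and miR-17-2-3p (bottom) on D2 (left) and D9 (right), with 1 point per rat, shaped by run of library numbers, and the mean ± SD beside each group. On D2 the sham-operated rats average 101.9 and 34.2 CPM, above the TBI+ and TBI− means, and on D9 miR-18a-3p averages 34.3 in the 4 TBI+ libraries of run 3.

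The other D2 members were not called. The guide miR-92a-3p stood at 156530, 112070, 172590 and 95849 CPM in the sham-operated rats, and at 72333 to 128830 in the TBI rats. Its log2 fold change was −0.32 (SE 0.19, adjusted p = 0.376 by edgeR), and 7 of 16 TBI rats were below all sham-operated rats. The passengers miR-17-1-3p (−0.65), miR-19a-5p (−0.80) and miR-92a-1-5p (−0.61) had negative log2 fold changes with adjusted p of 0.157, 0.286 and 0.426. The guides miR-17-5p, miR-19a-3p, miR-19b-3p and miR-20a-5p lay between −0.15 and 0.19. Of 5 platelet and white blood cell markers, 1 was called in the same comparison. This was the lymphocyte miRNA miR-150-5p, which was lower (log2 fold change −0.85, SE 0.26, adjusted p = 0.0443 by edgeR). Of 4 red blood cell markers, 0 were called. Over the 5 platelet and white blood cell markers, the summed level on D2 ranged from 40442 to 71529 CPM in sham-operated and from 13792 to 52751 in TBI rats. The part of these cells in the members' values was not tested.

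By outcome, the same pair of 3p arms was lower in TBI− rats. Between TBI− and sham-operated rats, miR-18a-3p fell by 1.24 on the log2 scale (SE 0.26, adjusted p = 0.00196 by edgeR) and miR-17-2-3p fell by 1.18 (SE 0.36, adjusted p = 0.0412). In TBI− rats, miR-18a-3p was 38.9 ± 9.49 CPM (SD, n = 9), with all 9 values between 28.0 and 56.9 and below all 4 sham-operated rats. These were 2 of 13 members, where 3.01% of all miRNAs were called lower. MiR-17-2-3p was not called without sham rat 1, 2 or 4, at log2 fold changes of −0.98, −1.25 and −1.30, whereas miR-18a-3p was called with any 1 sham-operated rat left out. No D2 TBI− library shares a run with the D2 sham-operated rats, so run and group cannot be told apart here.

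In TBI+ against sham-operated rats, 0 of 13 members were called by edgeR or DESeq2 on D2, where 3.19% of all miRNAs were called. Of the members, 6 had an unadjusted p below 0.05 in edgeR, as had 93 of the 565 miRNAs. MiR-18a-3p averaged 65.1 ± 21.4 CPM in the 7 TBI+ rats (± SD), with a log2 fold change of −0.57 (SE 0.27, adjusted p = 0.278). MiR-17-2-3p averaged 16.4 ± 7.30 CPM (± SD), with a log2 fold change of −0.96 (SE 0.38, adjusted p = 0.168). The TBI+ and TBI− comparisons use the same sham-operated rats.

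TBI+ and TBI− rats were then compared directly, which is the comparison that bears on epilepsy. On D2, 0 of 13 members and 0% of all miRNAs were called by edgeR, and DESeq2 called 0 members. An unadjusted p below 0.05 was found for 6 members and for 38 of the 565 miRNAs. The means of miR-19a-3p were 513 ± 216 CPM over the 7 TBI+ rats and 267 ± 157.5 CPM over the 9 TBI− rats (± SD), a log2 difference of 0.84 (SE 0.32, adjusted p = 0.490). MiR-19b-3p showed the same, as its reads are tied to it (0.82, SE 0.32, adjusted p = 0.490). MiR-18a-3p had a log2 difference of 0.67 (SE 0.22, adjusted p = 0.428). The ranges overlapped for all of these, with miR-19a-3p at 89.0 to 803 CPM in TBI+ and at 141 to 629 in TBI− rats. The other 3 of the 6 members were lower in TBI+ rats. They were miR-92a-1-5p (log2 difference −0.85, SE 0.36, adjusted p = 0.665) and the passengers miR-20a-3p and miR-19b-1-5p, which had no read in the 7 TBI+ rats and at most 3 and 2 reads in a TBI− rat.

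On D2, run 1 holds 4 of the 7 TBI+ libraries and 0 of the 9 TBI− libraries, and only run 2 holds both groups. Within run 2, miR-18a-3p was 47.1 ± 17.5 CPM over 3 TBI+ and 39.6 ± 11.4 CPM over 6 TBI− rats (mean ± SD), with a log2 difference of 0.31 (SE 0.35, adjusted p = 0.994 by edgeR). MiR-19a-3p averaged 484 CPM in the same 3 TBI+ rats, from 89.0 to 803, and 213 CPM in the 6 TBI− rats, from 141 to 404, with a log2 difference of 1.19 (SE 0.41, adjusted p = 0.489). The difference of miR-92a-1-5p was −0.060 (SE 0.43). Within this run 0 of 13 members and 1 of 531 miRNAs were called.

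On D9, the members did not pass the test in any group comparison. Of the 13 members, 0 were called between TBI and sham-operated rats, where 3.51% of all miRNAs were called. The count was 0 for TBI+ against sham-operated rats (1.85% of all), 0 for TBI− against sham-operated rats (4.81% of all) and 0 for TBI+ against TBI− rats (0% of all). By edgeR's unadjusted p below 0.05, these comparisons had 4, 4, 3 and 0 members, and 86, 86, 67 and 22 of the 541 miRNAs, and DESeq2 called 0 members in each. The shallow D9 libraries of sham-operated rats limit what could be detected.

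Single values on D9 spread widely. MiR-92a-3p stood at 84879, 89012, 79348 and 108590 CPM in sham rats 1 to 4, and 10 of 16 injured rats were above all of them. Its log2 fold change was 0.49 (SE 0.23, adjusted p = 0.297 by edgeR). MiR-17-1-3p stood at 71.1, 67.8, 64.3 and 61.4 CPM in the sham-operated rats. In TBI rats its median was 27.9, and 15 of 16 were below all sham-operated rats, with TBI− rat 2 at 138.5. Its log2 fold change was −0.70 (SE 0.44, adjusted p = 0.488). MiR-17-2-3p stood at 14.2, 6.17, 0 and 19.5 CPM in the sham-operated rats, from 2, 1, 0 and 7 reads. In TBI rats its range was 9.03 to 44.4, and its log2 fold change was 1.21 (SE 0.54, adjusted p = 0.250).

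For miR-18a-3p on D9, the mean of the TBI rats differed between the runs of library numbers, with overlap. It was 101.9 ± 33.4 CPM in TBI libraries of run 1 (SD, n = 8), 77.9 ± 36.9 in run 2 (SD, n = 4) and 34.3 ± 1.73 in run 3 (SD, n = 4). The 4 libraries of run 3, all from TBI+ rats, lay between 32.7 and 36.1 CPM, and the lowest library of run 2 stood at 32.8. The sham-operated rats, also in run 3, stood at 49.8, 105, 99.0 and 30.7 CPM.

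The balance of 3p and 5p arms was compared next, since both arms of a hairpin come from the same precursor. The rows of miR-17-5p and miR-92a-3p can hold reads of hairpins on both chromosomes. Ratios with these rows are therefore not the balance of a single hairpin. It was measured as the log2 ratio of 3p to 5p reads, with 0.5 added to each, and tested with limma over all hairpins whose arms each had a mean of at least 10 reads. MiR-92a and miR-19a were kept almost entirely as 3p arms, which made up 99.96% and 97.4% of their pooled reads. MiR-20a was the opposite, with 0.264% of its reads on the 3p arm. MiR-17-1-3p made up 5.67% and miR-17-2-3p made up 4.29% of their reads when each was set against the shared miR-17-5p. MiR-18a was balanced, with 51.4% of reads on the 3p arm, so passenger and guide cannot be named for it from these libraries.

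On D2, the 3p arm of miR-18a exceeded the 5p arm in 4 of 4 sham-operated rats, at log2 ratios of 0.79 to 1.36. In TBI rats the ratios ran from −0.68 to 1.15, and the 3p arm was higher in 9 of 16. The difference was −0.83 (SE 0.30, adjusted p = 0.154 by limma). The ratio of miR-17-2-3p to miR-17-5p was −3.32 ± 0.48 in the 4 sham-operated rats and −4.62 ± 0.79 in the 16 TBI rats (mean ± SD), a difference of −1.30 (SE 0.39, adjusted p = 0.124). Of the 77 hairpin pairs tested on D2, 0% were called, and so 0 of the 5 pairs of members were. An unadjusted p below 0.05 in limma was found for 11 of the 77.

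On D9, the ratio of miR-17-2-3p to miR-17-5p was −5.68 ± 0.98 in the 4 sham-operated rats and −4.21 ± 0.80 in the 16 TBI rats (mean ± SD). The difference was 1.48 (SE 0.46, adjusted p = 0.101 by limma), opposite in sign to D2. The 3p arm of miR-18a prevailed in 1 of 4 sham-operated and 8 of 16 TBI rats, a difference of 0.34 (SE 0.37, adjusted p = 0.640). Again 0% of the 74 hairpin pairs were called, with 0 of 5 among the members and 15 of 74 at an unadjusted p below 0.05. In TBI− rat 2, miR-17-1-3p exceeded miR-17-5p, the only library of 40 in which it did.

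**Figure D4:**
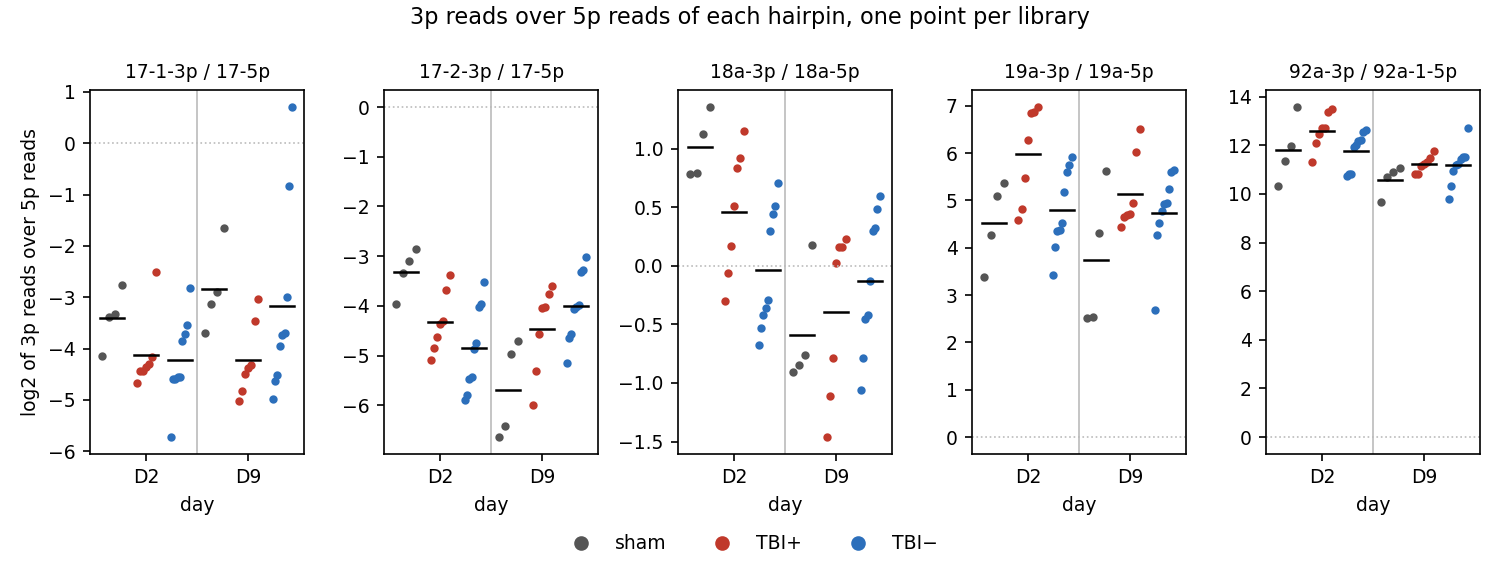
Log2 ratio of 3p to 5p reads for the 5 arm pairs with enough reads, by group on D2 and D9, with 1 point per library and a line at each mean. The dotted line marks equal arms. MiR-18a lies around equality, with sham-operated rats at 0.79 to 1.36 on D2, while miR-92a and miR-19a are 3p-dominated throughout.

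The last comparison followed the members from D2 to D9 in one model of all 40 libraries. In TBI rats, most members were higher on D9, abundant and rare arms alike. Of 13 members, 9 were called higher and 0 lower, where 13.9% of the 581 miRNAs were called higher. With the tied miR-19a-3p and miR-19b-3p counted once, these are 8 of 12 signals. The median log2 change was 0.75 over the members and 0.06 over all miRNAs. In sham-operated rats, 0 members were called by edgeR, where 6.71% of all miRNAs were called. An unadjusted p below 0.05 was found there for 6 members and for 17.4% of the 581 miRNAs. DESeq2 called 2 members, miR-18a-5p and miR-20a-5p, both higher, and 47 miRNAs in all, of which 31 were higher. All D2 sham libraries are in run 1 and all D9 sham libraries in run 3, so day and run cannot be told apart in these rats.

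Among the more abundant members, miR-20a-5p rose from a median of 142 CPM on D2 (96.5 to 207) to 214 on D9 (170 to 644) in TBI rats. Its log2 change was 0.91 (SE 0.16, adjusted p = 1.84e-05 by edgeR), and it was higher on D9 in 15 of 16 TBI rats. In sham-operated rats, it went from 227, 152.1, 183 and 113 to 228, 438, 396 and 142 CPM in rats 1 to 4, with a log2 change of 0.85 (SE 0.34, adjusted p = 0.127). MiR-18a-5p, one of the balanced arms of miR-18a, rose likewise in TBI rats (1.07, SE 0.20, adjusted p = 2.14e-05, 15 of 16 rats), beside 1.15 (SE 0.41, adjusted p = 0.0864) in sham-operated rats. For both, the difference between the groups' changes was small against its error, at 0.06 (SE 0.37) and −0.08 (SE 0.45).

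The reads of miR-19a-3p and miR-19b-3p rose by 0.74 (SE 0.24, adjusted p = 0.0138) and 0.73 (SE 0.24, adjusted p = 0.0135) on the log2 scale in TBI rats, in 13 of 16 rats each. MiR-92a-3p and miR-17-5p were not called, at 0.27 (SE 0.12, adjusted p = 0.0868) and 0.49 (SE 0.22, adjusted p = 0.0791). Among the lower members, the largest log2 change in TBI rats was that of miR-19a-5p (1.27, SE 0.26, adjusted p = 0.000122). MiR-17-1-3p and miR-92a-1-5p followed at 1.04 and 1.02, with adjusted p of 0.000271 and 0.000571. MiR-18a-3p changed by 0.69 (SE 0.22, adjusted p = 0.0111), and it was higher on D9 in 3 of 7 TBI+ and 8 of 9 TBI− rats.

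The red blood cell index and most blood cell markers were also higher on D9 in TBI rats. Of the 4 red blood cell markers with a row, all 4 were called higher on D9 in TBI rats, miR-451-5p among them (0.86, SE 0.23, adjusted p = 0.00287), and so were 4 of the 5 platelet and white blood cell markers. Their summed levels in TBI rats ranged from 10781 to 48279 CPM on D2 and from 17910 to 74325 on D9 for red blood cells, and from 13792 to 52751 and 20491 to 66799 for platelets and white blood cells. In sham-operated rats, 0 of the 4 red blood cell markers were called between the days. With the index as a covariate, 0 of the 9 members were called and their log2 changes ran from −0.052 to 0.84. The index itself differed between the days, at −1.21 to 0.90 on D2 and 0.057 to 2.39 on D9 in TBI rats. This fit can therefore hardly separate the day from the index. The same covariate lowered the number of all miRNAs called higher from 81 to 20 of 581, so the loss was not limited to the members. With the level of miR-451-5p alone as the covariate, 5 members and 72 of 581 miRNAs were called higher.

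With the runs of library numbers as a term, the same 9 members were called, and the median log2 change over the members was 0.80. In TBI libraries of a single run, 1 member was called higher in run 1, 8 in run 2 and 0 in run 3, beside 13 of 529, 43 of 541 and 20 of 526 miRNAs. The median log2 change over the members was 0.98 in run 1 and 0.97 in run 2, and 0.096 in run 3. Without TBI− rat 2, whose D9 library stood apart, 6 members were called, and miR-18a-3p, miR-19a-3p and miR-19b-3p were not.

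The change from D2 to D9 differed between TBI and sham-operated rats for a single member, miR-17-2-3p of the X paralogue. Of all miRNAs, 1.89% were called with a higher change in TBI. In TBI rats, miR-17-2-3p rose by 0.75 (SE 0.22, adjusted p = 0.00754 by edgeR), in 14 of 16 rats. In sham-operated rats its log2 change was −1.63 (SE 0.57, adjusted p = 0.0699), and it was lower on D9 in 4 of 4 rats. The difference was 2.39 (SE 0.61, adjusted p = 0.0207 by edgeR). It rests on D9 sham libraries with 2, 1, 0 and 7 reads of this miRNA. The call was lost without sham rat 1, 2 or 3, with libraries thinned to a common total, and with the runs of library numbers as a term, but the difference ran from 2.06 to 3.20 over all 14 alternatives. MiR-92a-3p and miR-18a-3p had differences of 0.82 (SE 0.27, adjusted p = 0.0710) and 1.22 (SE 0.52, adjusted p = 0.218).

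**Figure D5:**
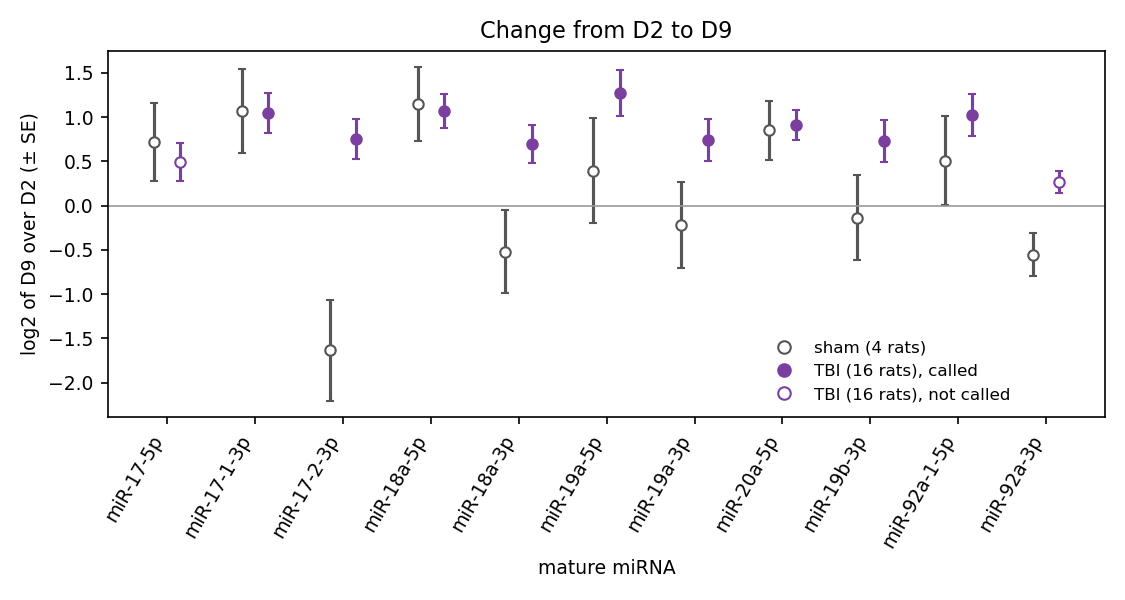
Log2 change from D2 to D9 with its SE for the 11 members with a mean of at least 10 reads, in sham-operated (4 rats) and TBI rats (16 rats). Filled points are called by edgeR. In TBI rats all 11 estimates are above 0 and 9 are called, and miR-17-2-3p is the member with sham-operated (−1.63) and TBI (0.75) estimates farthest apart.

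The paralogous clusters were described alongside. Of the 4 other rows of the X paralogue, 0 were called on D2 or D9 in any comparison with sham-operated rats, and 2 were higher on D9 than on D2 in TBI rats. These were miR-363-3p (0.85, SE 0.15, adjusted p = 1.48e-05) and miR-20b-3p (1.81, SE 0.35, adjusted p = 5.18e-05). Of the 6 rows of the miR-106b, miR-93 and miR-25 cluster, 3 were called higher from D2 to D9 in TBI rats, namely miR-106b-3p (0.72), miR-106b-5p (0.62) and miR-93-5p (0.61). In the same cluster, miR-25-5p was lower in TBI than in sham-operated rats on D9 (−1.94, SE 0.51, adjusted p = 0.0229). Its sham values on D9 ran from 0 to 204 CPM, with a median of 29.4, from 0 to 33 reads per library. The TBI range, 4.07 to 28.9 CPM, lay within the sham range. MiR-92b-3p, which carries the seed of miR-92a-3p, moved the other way from D2 to D9 in TBI rats (−0.51, SE 0.15, adjusted p = 0.00614), where miR-92a-3p had 0.27.

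Likeness between rows was measured as the SD of their log2 ratio over the 20 libraries of a day, among the 137 other rows that averaged at least 100 reads. Outside the cluster, miR-17-5p was most like miR-25-3p, miR-93-5p and miR-16-5p on D2, at SDs of 0.28, 0.28 and 0.29, against a median of 0.62. On D9 it was most like miR-361-5p, miR-26b-5p and miR-93-5p, at 0.44, 0.46 and 0.50, against a median of 1.01. MiR-92a-3p was most like miR-423-5p, miR-423-3p and miR-92b-3p on D2 (0.23 to 0.25) and let-7g-5p on D9 (0.28). MiR-20a-5p was most like miR-26b-5p on D2 (0.19) and miR-877 on D9 (0.40). For miR-19a-3p the nearest row was miR-186-5p on D2 (0.59) and miR-872-3p on D9 (0.44). Within the cluster, apart from the tied miR-19 rows (0.03 on D2 and 0.08 on D9), miR-18a-5p and miR-20a-5p were closest on both days, at 0.33 and 0.41.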

How the data were processed

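Plasma small RNA of 20 rats on D2 and D9 was prepared with the TruSeq Small RNA kit. Per the submitters' notes and the study's methods, the authors trimmed reads with Trimmomatic 0.36, dropped those under 17 nucleotides, merged both flow cells, aligned to Rno6 with Bowtie2 in its very sensitive local mode and counted mature miRNAs of miRBase with featureCounts. The deposited values are raw read counts, 1 column per library. How reads matching several hairpins were counted is not given in the sources used here.

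Groups came from the sample labels. Counts were tested with edgeR 4.0.16 (quasi-likelihood, TMM, no filter beyond 1 read), by day, and in 1 model of all 40 libraries for D2 to D9. Group comparisons by outcome shared 1 fit of the 20 libraries of the day. Arm ratios were tested with limma 3.58.1. P-values were adjusted over all rows tested. The scripts were tested on simulated data. Members, lists and tests were chosen with earlier results of these data known. Named miRNAs are all rows of the rule, the called rows of paralogous clusters, markers that touch a result and the 3 rows most like each abundant member, of which some are given. Rows of miR-486, miR-106a and miR-18b were not found under these names, and miR-122-5p, the liver marker, had 0 reads. Of the brain markers, miR-124-3p and miR-129-5p were called higher in TBI rats on D2.

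D2 and D9 libraries of the same rat pair by design, and the correlations of their deviations from the group means ran from −0.34 to 0.386 (median −0.064). Alternatives were DESeq2 1.42.0, RLE and total count scaling, filterByExpr, thinning, the replicate number or rat as a block, covariates, single runs and single rats left out. Replicates are separate rats. RefSeq names and sequences are from GRCr8, and no coordinates are given because the files' build differs. Analyses used R 4.3.3 and Python 3.11.15, with matplotlib 3.10.9 for figures and scipy 1.17.1 for intervals.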

Additional observations from a re-analysis of the deposited data

Results flagged for a closer look

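The D9 library of TBI− rat 2 lay far above the other 8 TBI− rats for 4 members. It had 138.5 CPM of miR-17-1-3p, 256 CPM of miR-18a-5p, 644 CPM of miR-20a-5p and 117.4 CPM of miR-92a-1-5p, while the TBI− medians were 28.8, 86.4, 218 and 48.4 CPM. The same library had the lowest miR-17-5p level of all, 84.3 CPM from 28 reads. Dixon's criterion was applied to 66 groups of values. These 4 passed it. All 4 come from the same library and are not separate draws, so the 1 in 20 or so that chance flags is no measure for them. The library held 332161 reads. Without this rat, 6 rather than 9 members were called higher on D9 than on D2 in TBI rats. On D9, 0 members were called without it for TBI or TBI− against sham-operated rats, or for TBI+ against TBI− rats. TBI+ against sham-operated rats was not refitted. The cause was not tested.

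The day change of miR-17-2-3p differed between TBI and sham-operated rats by 2.39 on the log2 scale (SE 0.61, adjusted p = 0.0207 by edgeR's interaction term). It was higher on D9 in 14 of 16 TBI rats and in 0 of 4 sham-operated rats. The D9 libraries of the sham-operated rats held 2, 1, 0 and 7 reads of it. The call was lost in 5 of 14 alternatives.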

How the results depend on the processing

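On D2, the 2 members called lower in TBI than in sham-operated rats became 1 with RLE scaling, with thinned libraries, with the replicate block, within run 1 (1, miR-92a-1-5p) and with the run as a term (1, miR-92a-1-5p), and 0 to 1 when single sham-operated rats were left out. For TBI+ against sham-operated rats the count rose from 0 to 1 within run 1, and for TBI− against sham-operated rats leaving out single sham-operated rats gave 1 to 2. Between TBI+ and TBI− rats on D2, the replicate block gave 2 in place of 0, the tied miR-19a-3p and miR-19b-3p, higher in TBI+. Replicate numbers of different groups share only a number, however. Over the 7 pairs of same-numbered TBI+ and TBI− libraries on D2, the correlation had a median of −0.0055 and exceeded 0.1 in 2.

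From D2 to D9 in sham-operated rats, the count of 0 became 2 with DESeq2, 1 with filterByExpr, 1 with the run as a term, 1 with miR-451-5p as covariate and 0 to 1 with single rats left out (1, miR-17-2-3p, without sham rat 4). In TBI rats, the 9 became 5 with thinned libraries, 0 with the red blood cell index, 5 with miR-451-5p as covariate, 1 in run 1 and 0 in run 3, and stayed at 9 with the rat as block and with the run as a term. The change of miR-18a-3p turned to −0.052 with the index and to −0.24 in run 3. The difference of day changes went from 1 to 0 with thinned libraries and with the run as a term, and to 0 to 1 with single sham-operated rats left out. The rat as a block changed no call of these day comparisons. The causes were not tested. All 3 single-run settings hold fewer libraries, and the thinned setting holds fewer reads. On D9, RLE scaling moved the median of all miRNAs between TBI and sham-operated rats from 0.30 to 0.12 and that of the members from 0.09 to −0.08, with 0 members called under each. The other 123 recomputed counts stayed within 1.5 times the main count. Terms for the run and miR-451-5p, single-run fits and the fit without TBI− rat 2 were added after the data were seen. The D9 sham depth limits low members most.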
